A study of Mus musculus with 2 samples.

Results

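The 10 genes Zmym1, Rsrp1, Zdhhc24, Trabd2b, Rap2b, Chst12, Mlip, Prss12, Cyp7b1 and Gpr155 were followed across the cell classes of the mouse dorsal CA1, the output field of the hippocampus. They were found by symbol among the 30431 gene rows of the deposited matrices, and each symbol named 1 row. They were chosen by their ratio of epilepsy to control counts, which an earlier reading of these same libraries had found low in several cell classes or in 1 sublayer of CA1. These ratios are given below as a description, with no test.

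Single nuclei were sequenced from male C57BL/6J mice that carried Calb1::Cre and a Tdtomato reporter, so that cells using the calbindin gene are marked. Both groups had this genotype and were 6 to 7 weeks old at treatment. The epilepsy mice received kainate, an agonist of glutamate receptors, at 5 mg/kg into the peritoneum every hour until they entered status epilepticus, a state of unbroken seizures that was then stopped with diazepam at 4 mg/kg, and controls received the vehicle, saline or DMSO. Dorsal CA1 was dissected 12 weeks later, and nuclei were sorted and loaded on the 10x system. The labels name 2 mice per condition, and do not say whether a library holds nuclei of 1 mouse or of both.

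Each condition was thus 1 library, and every interval below is an exact 95% interval that covers counting error only. The control matrix held 3661 barcodes and 11858162 unique molecular identifiers (UMIs, 1 for each captured RNA molecule), and the epilepsy matrix 3078 barcodes and 7112131 UMIs. The median nucleus had 3447 UMIs in the control matrix and 2443 in the epilepsy matrix, and 16 barcodes occurred in both. Levels are given as CPM, the UMIs of a gene scaled to a common class total, which removes this difference in totals but not the lower chance of seeing a gene at all in a shallow nucleus. CA1 pyramidal-like nuclei, the principal excitatory cells, numbered 2782 from the control and 2272 from the epilepsy library. Interneuron-like nuclei numbered 197 and 143, and oligodendrocyte-like nuclei 179 and 262. In the pyramidal-like class the 10 CA1 pyramidal markers were all above 0 and summed to 3216 CPM in control and 3352 CPM in epilepsy nuclei. In interneuron-like nuclei they summed to 783 and 796 CPM. Not every small class held all of its own markers. In CA2/CA3 pyramidal-like nuclei 4 of 7 were at 0 in the control and 0 of 7 in the epilepsy library. Dentate granule-like nuclei (153 and 14), which lie outside CA1, and other small classes had fewer than 30 nuclei in at least 1 library and are described only by their levels. A group with mixed markers (83 and 86 nuclei) and a group of pyramidal nuclei led by glial genes (56 and 68) were kept apart from the named classes.

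CA1 pyramidal neurons lie in 2 sublayers, deep cells towards the surface of the stratum oriens and superficial cells towards the stratum radiatum, and the superficial cells are known for calbindin. Temporal lobe epilepsy after status epilepticus is known for loss and reorganisation of hippocampal circuits, and CA1 is among the fields affected. The 10 genes belong to no single pathway. Their products work in the nucleus (Zmym1, Rsrp1, Mlip), at membranes and in signalling (Zdhhc24, Rap2b, Trabd2b), on the extracellular matrix and the synapse (Chst12, Prss12), and on sterols and in the lysosome (Cyp7b1, Gpr155).

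Promoter sequence was one property that the choice of genes had not used. The RefSeq promoter table (GRCm38.p6) held 7 of the 10 genes in 9 windows, read here over the 250 bases before each start. Zmym1, Trabd2b and Cyp7b1 had no entry. Windows of the 7 genes had a median G and C content of 58.8% and a median of 15 CpG dinucleotides, against 52.4% and 6 over all 32851 windows. The stretches printed are the parts outside annotated exons for the 4 genes that hold more than 1 kind of searched motif and have such a part, 5′ to 3′ on the strand of the gene. Capitals mark GC boxes (GGGCGG or its reverse complement), CCAAT boxes (CCAAT or ATTGG) and the core of the cyclic AMP response element (TGACG or its reverse complement), and at the end of the Gpr155 stretch adjoining GC boxes run into each other.
Rsrp1, chr4:134923375-134923591, plus strand: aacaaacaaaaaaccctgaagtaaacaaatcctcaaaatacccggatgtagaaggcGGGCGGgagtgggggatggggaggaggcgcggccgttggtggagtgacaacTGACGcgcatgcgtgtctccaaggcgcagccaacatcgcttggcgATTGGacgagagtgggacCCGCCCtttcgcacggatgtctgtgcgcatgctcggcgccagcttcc
Zdhhc24, chr19:4878418-4878667, plus strand: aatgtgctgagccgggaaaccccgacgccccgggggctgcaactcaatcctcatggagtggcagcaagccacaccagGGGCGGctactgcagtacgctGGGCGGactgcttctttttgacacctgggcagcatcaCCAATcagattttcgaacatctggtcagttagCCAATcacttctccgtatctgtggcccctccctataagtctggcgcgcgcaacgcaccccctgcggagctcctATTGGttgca
Chst12, chr5:140505359-140505549, plus strand: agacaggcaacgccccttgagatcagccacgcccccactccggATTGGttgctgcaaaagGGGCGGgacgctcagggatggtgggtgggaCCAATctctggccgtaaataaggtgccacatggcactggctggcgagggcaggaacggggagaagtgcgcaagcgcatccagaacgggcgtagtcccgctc
Gpr155, chr2:73386573-73386730, minus strand: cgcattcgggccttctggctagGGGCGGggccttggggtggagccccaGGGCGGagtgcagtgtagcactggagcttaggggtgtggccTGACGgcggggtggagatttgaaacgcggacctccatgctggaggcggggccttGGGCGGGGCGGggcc

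On both strands of the full windows, the GC box was present in 5 of the 7 genes (Chst12, Gpr155, Rap2b, Rsrp1 and Zdhhc24) and in 32.7% of all windows. A gene with more than 1 window was counted if any of them held the motif, while the shares are of single windows. The CCAAT box was present in Chst12, Rsrp1 and Zdhhc24, 3 of 7, and in 33.9% of all windows. TGACG, which the full element TGACGTCA contains, was present in Gpr155, Rsrp1 and Zdhhc24, again 3 of 7, and in 17.8% of all windows. That full element, the AP-1 site TGANTCA and the cores of the NRF1 and YY1 sites were found in none of the 7 genes, and occurred in 1.55%, 6.75%, 0.782% and 0.207% of all windows. The E-box CACGTG and the TATA box TATAAA were each found in Mlip alone (6.02% and 12.4% of all windows), and none of the motifs was found for Prss12. All 250 bases of each Mlip window and of the Rap2b window lay in annotated exons, so the motifs found for these genes are in exon sequence. No searched motif was thus present in all of the 7 genes.

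The genes also lay apart in the genome. Chromosome 3 (GRCm38) held 3 of them, Rap2b (61361638 to 61368430), Prss12 (123446913 to 123506597) and Cyp7b1 (18071950 to 18243338). Chromosome 4 held Zmym1 (127047094 to 127061152, minus strand), Rsrp1 (134923592 to 134927671) and Trabd2b (114406724 to 114615098). Zdhhc24 lay on chromosome 19 (4878668 to 4885397), Chst12 on chromosome 5 (140505550 to 140525724), Mlip on chromosome 9 (77102081 to 77352969) and Gpr155 on chromosome 2 (73341506 to 73386572). All are annotated as protein-coding, and their median length of 32.6 kb was close to the 33.5 kb of genes measured in pyramidal-like nuclei.

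In CA1 pyramidal-like nuclei all 10 genes stood lower in the epilepsy library, by 1.42-fold (Cyp7b1) to 3.30-fold (Zmym1). The level was at least 2-fold lower for 7, and the interval of the log2 ratio lay below 0 for all 10. Over the 11043 genes with at least 50 UMIs in this class, 1.18% were at least 2-fold lower and 16.5% had an interval below 0. On the log2 scale of epilepsy over control, the median was -1.20 for the 10 genes and -0.01 over all genes. Since this contrast chose the genes, the counts describe them and show nothing further.

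**Figure D1:**
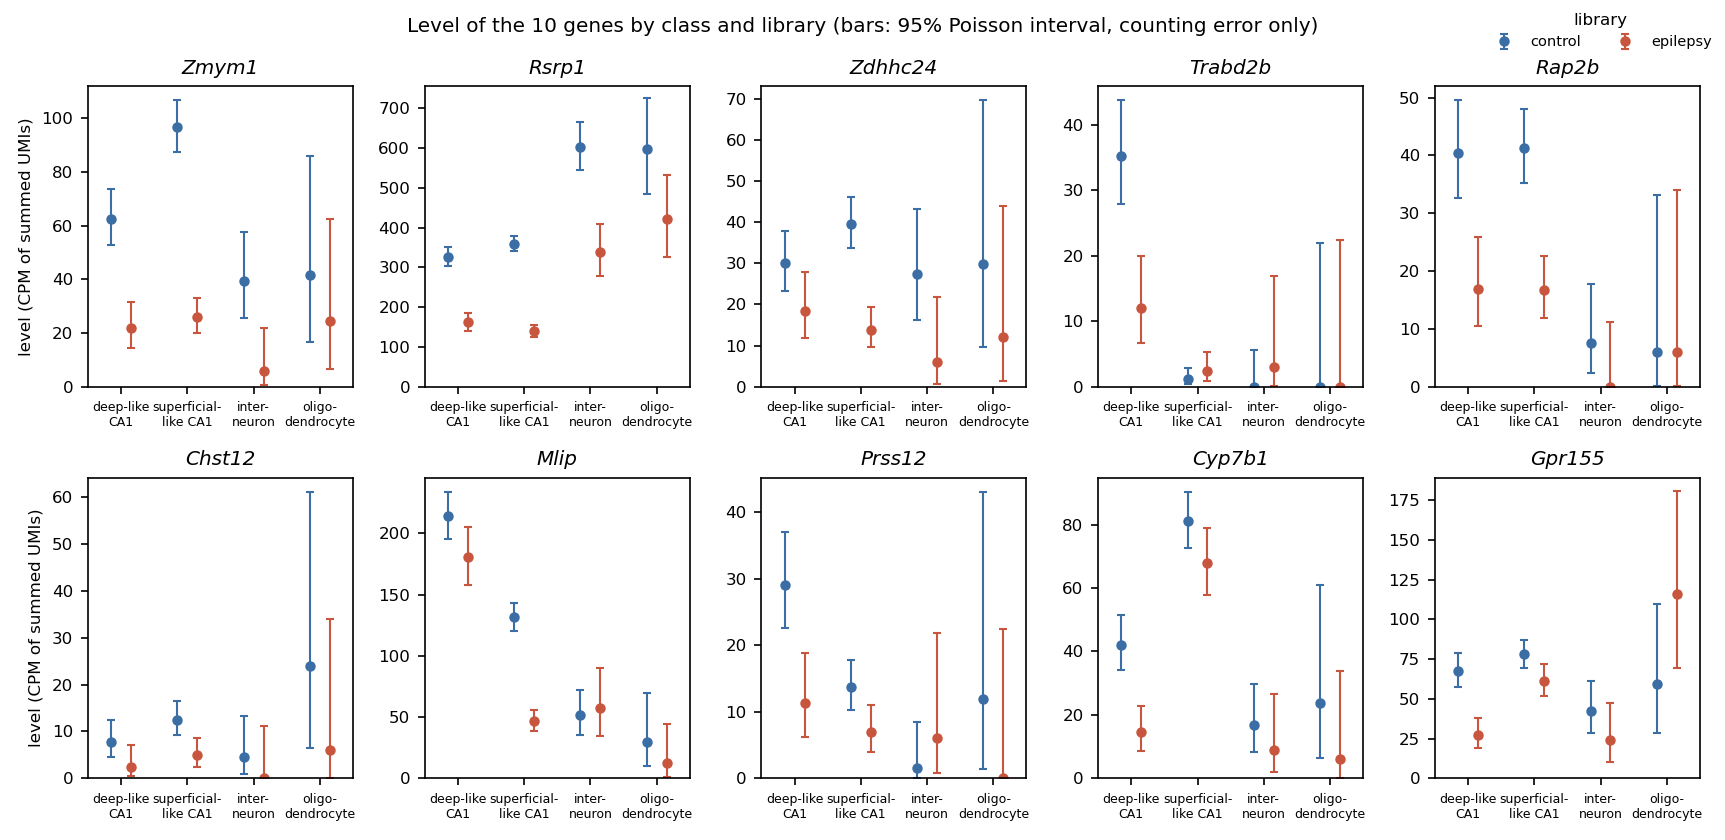
Level of each of the 10 genes (CPM, linear axis from 0, 1 panel per gene) in deep-like and superficial-like pyramidal, interneuron-like and oligodendrocyte-like nuclei of the control and the epilepsy library; error bars are exact 95% Poisson intervals. Rsrp1 is lower in the epilepsy library in all 4 groups of nuclei (326 to 162, 359 to 139, 602 to 339 and 597 to 420 CPM), while Gpr155 in oligodendrocyte-like nuclei goes from 59.7 to 116 CPM.

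Among the nuclear genes, Zmym1 encodes a zinc finger protein of the MYM type. It had 824 UMIs in the pyramidal-like nuclei of the control and 149 in those of the epilepsy library, levels of 85.2 CPM (79.5 to 91.2) and 25.8 CPM (21.8 to 30.3). The log2 ratio was -1.72 (-1.98 to -1.47), the lowest of the 10. Rsrp1 encodes a protein rich in arginine and serine, a composition shared with splicing regulators. It rested on the most UMIs of the 10, 3303 and 897, and stood at 341 CPM (330 to 353) in control and 155 CPM (145 to 166) in epilepsy nuclei. Its log2 ratio was -1.14 (-1.24 to -1.03). Mlip encodes a protein that binds lamin A/C at the nuclear envelope. Its level was 164 CPM (156 to 173) in control and 98.8 CPM (90.8 to 107) in epilepsy nuclei, a log2 ratio of -0.73 (-0.87 to -0.59).

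Zdhhc24 belongs to the DHHC family, whose members attach palmitate to proteins. It stood at 33.2 CPM (29.7 to 37.0) in control and 13.9 CPM (11 to 17.3) in epilepsy nuclei, 2.39-fold lower. Rap2b is a small GTPase of the Rap branch of the Ras superfamily. It was at 42.4 CPM (38.4 to 46.7) and 15.8 CPM (12.7 to 19.4), 2.69-fold lower. Trabd2b, also called Tiki2, is a membrane metalloprotease that inactivates Wnt proteins. It had few UMIs, 122 in control and 25 in epilepsy nuclei, or 12.6 CPM (10.5 to 15.1) and 4.33 CPM (2.80 to 6.39).

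Chst12 is a Golgi enzyme that adds sulfate to chondroitin, a component of the matrix around neurons. It had 101 and 21 UMIs, or 10.4 CPM (8.5 to 12.7) in control and 3.64 CPM (2.25 to 5.56) in epilepsy nuclei. Prss12 encodes neurotrypsin, a serine protease released at synapses that cleaves agrin. It stood at 20.8 CPM (18.0 to 23.9) and 9.88 CPM (7.48 to 12.8), 2.10-fold lower. Its log2 ratio was -1.07 (-1.52 to -0.64), and -0.55 with nuclei thinned to 1000 UMIs. Cyp7b1 encodes the oxysterol 7-alpha-hydroxylase, which also acts on neurosteroids, and Gpr155 a cholesterol sensor of the lysosome that signals to the growth regulator mTORC1. Cyp7b1 was at 63.7 CPM (58.7 to 68.9) and 44.7 CPM (39.4 to 50.5), and Gpr155 at 71.1 CPM (65.9 to 76.6) and 47.0 CPM (41.5 to 52.9). These log2 ratios were the closest to 0 of the 10 (-0.51 and -0.60), and control and epilepsy intervals stood apart for both genes.

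The pyramidal-like nuclei formed 7 clusters in a clustering from which the 10 genes had been left out. Zmym1 and Rsrp1 were lower in the epilepsy library in all 7, each time with an interval below 0. For Zmym1 the clusters spanned 62.6 to 108 CPM in control and 21.7 to 40.5 CPM in epilepsy nuclei, and for Rsrp1 276 to 377 CPM and 121 to 206 CPM. No epilepsy cluster reached the lowest control cluster for either gene, an arrangement seen for 0.806% of the genes with at least 50 UMIs in the class. Intervals below 0 in every cluster were seen for 0.29%. The same separation held for Rap2b (33.0 to 62.6 CPM against 3.55 to 20.4 CPM) and for Chst12 (7.82 to 13.0 CPM against 0 to 6.99 CPM), though the Chst12 interval lay below 0 in only 2 clusters. Zdhhc24 and Gpr155 were lower in all 7 clusters, with intervals below 0 in 3 and 4. Altogether, 6 of the 10 genes were lower in every cluster, against 6.57% of genes. The clusters, like the sublayers below, are parts of the class whose ratio chose the genes, so such counts describe them and show nothing further.

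The other 4 genes had a cluster that went the other way. Mlip was lower in 6 clusters, each with an interval below 0, and stood at 289 and 313 CPM in the control and epilepsy nuclei of cluster 5, whose leading genes were immediate early genes (log2 ratio 0.11, -0.27 to 0.49). Cyp7b1 was at 61.7 and 64.9 CPM in cluster 2, a superficial-like cluster (log2 ratio 0.07). Prss12 was at 15.9 and 18.3 CPM in cluster 4, which had low UMI totals, with medians of 1923 and 1588 per nucleus. Trabd2b was lower in 6 clusters, with an interval below 0 in 2.

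**Figure D2:**
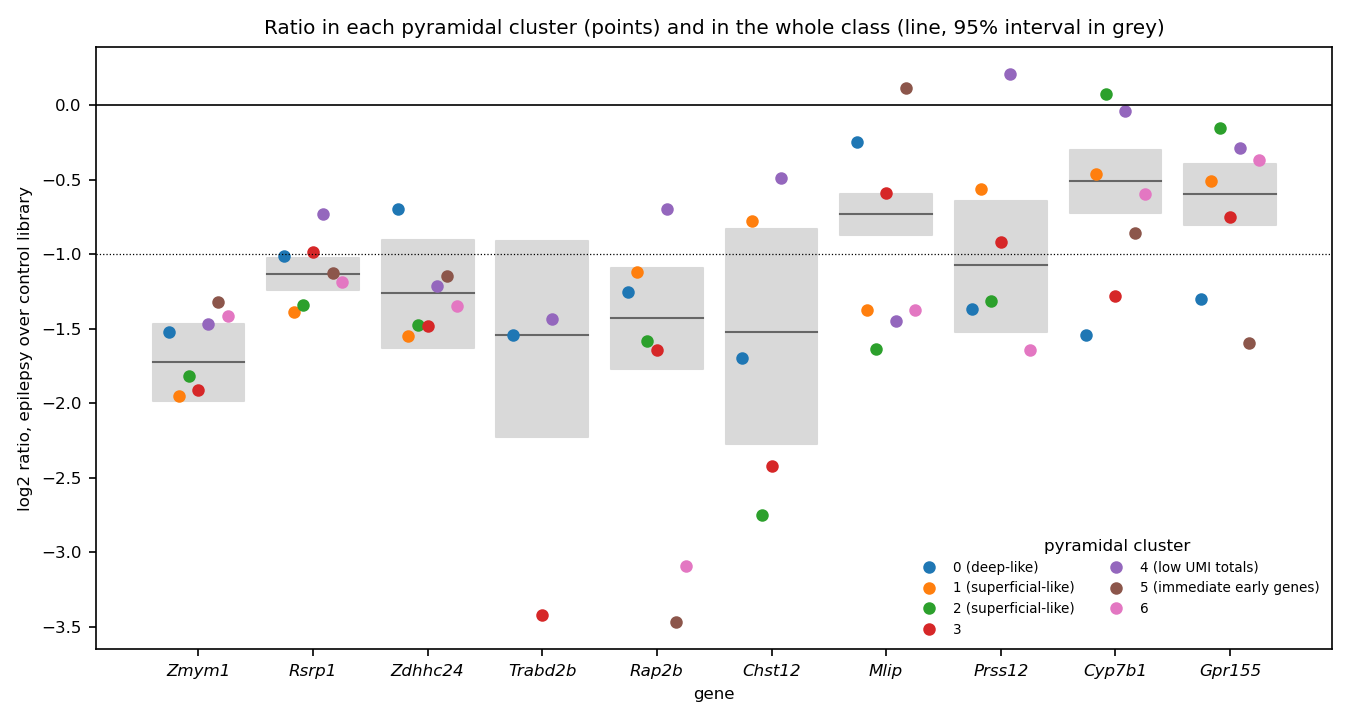
Log2 ratio of epilepsy to control CPM for each gene in the pyramidal-like class (line, with its 95% interval in grey) and in its 7 clusters (points); points under 10 UMIs or with 0 UMIs in a library are left out. The Zmym1 points lie between -1.95 and -1.32 and the Rsrp1 points between -1.39 and -0.73, all below 0, while Mlip spreads from -1.63 to 0.11.

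Deep-like nuclei (635 control, 482 epilepsy) and superficial-like nuclei (1099 and 930) were told apart by markers including Ndst4 and Calb1. At least 2-fold lower levels were seen for 8 of the 10 genes in deep-like and 6 of the 10 in superficial-like nuclei, where 5.73% and 3.52% of genes with at least 10 UMIs were that much lower. Intervals lay below 0 for 8 genes in each sublayer, against 7.67% and 8.09% of genes. The sublayers did not hold the same 8, which left out Zdhhc24 and Chst12 in deep-like and Cyp7b1 and Trabd2b in superficial-like nuclei. Several of the genes, among them Mlip, Cyp7b1, Gpr155 and Prss12, had been picked from 1 sublayer, so a gap between sublayers is part of how they were chosen and is a description too.

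Mlip had the larger difference in superficial-like nuclei. It stood at 132 CPM (121 to 143) in control and 46.7 CPM (38.6 to 56.1) in epilepsy nuclei there, a log2 ratio of -1.49 (-1.80 to -1.20). In deep-like nuclei it was at 214 CPM (196 to 234) and 180 CPM (158 to 206), a log2 ratio of -0.25 (-0.48 to -0.02). Within a library, the superficial to deep ratio of Mlip was -0.70 (-0.88 to -0.52) in control and -1.95 (-2.29 to -1.62) in epilepsy nuclei on the log2 scale. These intervals did not overlap, so Mlip was weighted more towards deep-like nuclei in the epilepsy library than in the control. Control and epilepsy intervals of this ratio stood apart for 3 of the 10 genes, Mlip and the 2 described next, and for 3.09% of genes with at least 50 UMIs in the class.

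Cyp7b1 and Gpr155 had the opposite arrangement, with the larger difference in deep-like nuclei. Cyp7b1 was at 42.2 CPM (34.2 to 51.4) and 14.5 CPM (8.59 to 22.9) in the deep-like nuclei of control and epilepsy, and at 81.0 CPM (72.5 to 90.3) and 67.8 CPM (57.9 to 78.9) in superficial-like nuclei. Gpr155 was at 67.4 CPM (57.2 to 78.9) and 27.4 CPM (19.0 to 38.3) in deep-like nuclei, and at 78.1 CPM (69.7 to 87.2) and 61.3 CPM (51.9 to 71.9) in superficial-like nuclei. The log2 superficial to deep ratio of Cyp7b1 went from 0.94 (0.61 to 1.28) in the control to 2.23 (1.52 to 3.02) in the epilepsy library. That of Gpr155 went from 0.21 (-0.07 to 0.50) to 1.16 (0.62 to 1.75). Both sterol-linked genes were therefore more superficial-weighted in the epilepsy library, again with intervals that did not overlap.

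The gap between the sublayers, the superficial minus the deep log2 ratio of epilepsy to control, was -1.25 for Mlip, 1.28 for Cyp7b1 and 0.95 for Gpr155. Its sign held for these 3 genes under all 10 alternative settings, but its size did not. It ranged from -1.39 to -0.58 for Mlip, 0.50 to 1.54 for Cyp7b1 and 0.36 to 1.39 for Gpr155, with the smallest values where the class was split at the median of the sublayer marker score. With that split, the control and epilepsy intervals of the superficial to deep ratio stood apart for Mlip and Zdhhc24 (1.88% of genes) and overlapped for Cyp7b1 and Gpr155.

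The other 7 genes had smaller or less steady gaps. Zmym1 went from 62.6 to 21.7 CPM in deep-like and from 96.7 to 26.0 CPM in superficial-like nuclei, and Rap2b from 40.4 to 16.9 CPM and from 41.3 to 16.7 CPM. Rsrp1 had a slightly larger log2 difference in superficial-like nuclei (-1.37 against -1.01), and this gap kept its sign in all 10 alternatives, as did that of Zdhhc24 (-1.52 against -0.70), which ranged from -1.35 to -0.11. The gaps of Zmym1, Rap2b, Chst12, Prss12 and Trabd2b changed sign in some of the alternatives.

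Trabd2b was mostly found in deep-like nuclei in both libraries. It had 81 UMIs in deep-like and 5 in superficial-like nuclei of the control (35.2 and 1.24 CPM), and 15 and 6 in the epilepsy library (12.1 and 2.44 CPM). The log2 superficial to deep ratio was -4.82 (-6.49 to -3.54) in control and -2.31 (-3.96 to -0.86) in epilepsy nuclei. Prss12 was also higher in deep-like nuclei of the control (29.1 against 13.7 CPM; log2 -1.09, -1.63 to -0.55), and its epilepsy interval included 0 (-1.82 to 0.42). Across the 10 genes, 7 were weighted towards the same sublayer in both libraries, a share near the 65.4% of all genes.

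**Figure D3:**
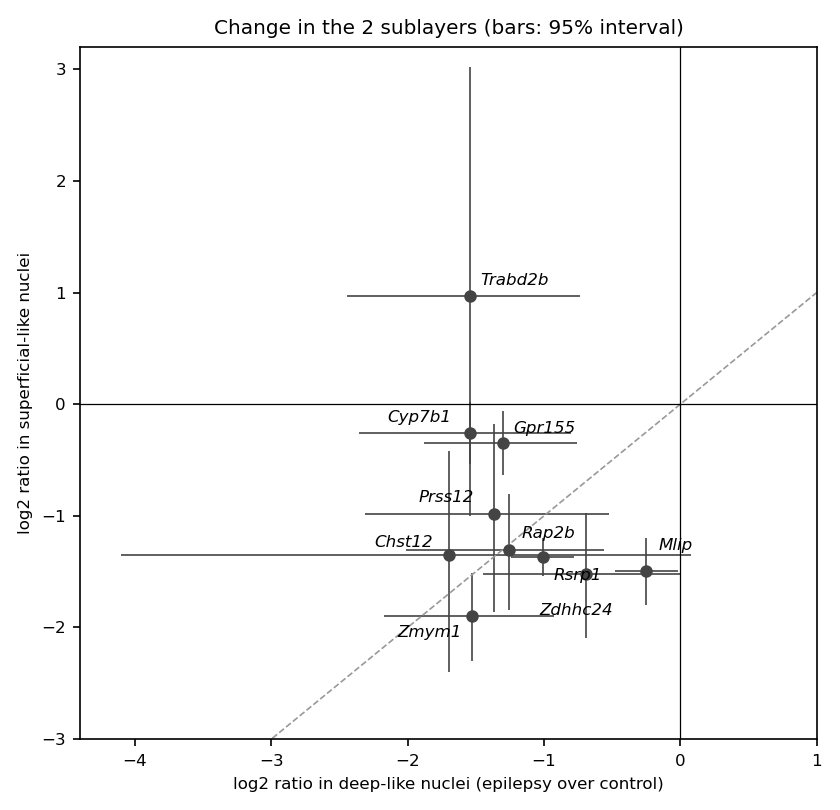
Log2 ratio of epilepsy to control CPM in deep-like nuclei (horizontal axis) against superficial-like nuclei (vertical axis), 1 point per gene with 95% intervals of both; the dashed diagonal marks equal ratios. Mlip (-0.25, -1.49) lies below the diagonal, and Cyp7b1 (-1.54, -0.26) and Gpr155 (-1.30, -0.35) lie above it.

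A pyramidal-like nucleus was less likely to hold a UMI of each of the 10 genes in the epilepsy library, and the intervals of the share of positive nuclei stood apart for all 10. The same was true of 50.8% of genes with at least 50 UMIs, so in the deposited counts this says little of the 10 genes. Rsrp1 was seen in 66.3% of control and 31.9% of epilepsy nuclei, Mlip in 38.5% and 18.2%, and Zmym1 in 25% and 6.34%. The sparser genes Trabd2b and Chst12 were each seen in 3.56% of control nuclei, and in 1.06% and 0.836% of epilepsy nuclei. For comparison, oligodendrocyte-like nuclei, a shallow class with medians of 801 and 595 UMIs, held Rsrp1 in 43.6% and 24.4% and Zmym1 in 2.79% and 1.15% in the deposited counts.

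Depth differed with the library, since the median pyramidal-like nucleus had 3597.5 UMIs in control and 2596.5 in epilepsy. With each nucleus thinned to 1000 UMIs, which left out 51 control and 82 epilepsy nuclei, the shares stood apart, lower in the epilepsy library, for 9 of the 10 genes and for 3.76% of all genes. Rsrp1 was then seen in 30.1% and 14.3% of nuclei, Zmym1 in 8.46% and 2.92%, Mlip in 14.2% and 8.36%, and Cyp7b1 in 6.15% and 3.61%. Prss12 was the gene whose intervals overlapped (1.87% and 1.23%). With 500 UMIs per nucleus the intervals stood apart for Zmym1, Rsrp1, Zdhhc24, Trabd2b and Mlip (1.93% of all genes), and the other 5 were not separable at that depth. Thinned counts are drawn from those that chose the genes, so these shares are a description as well.

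In the deposited counts, which keep the difference in depth, the sublayers gave these shares for the same 3 genes. In deep-like nuclei Mlip was seen in 47.4% of control and 31.7% of epilepsy nuclei, and in superficial-like nuclei in 36.9% and 10.8%. Cyp7b1 was seen in 13.2% and 3.73% of deep-like nuclei and in 22.2% and 15.4% of superficial-like nuclei. Gpr155 was seen in 21.9% and 6.22% of deep-like nuclei and in 23.7% and 15.1% of superficial-like nuclei. Thinned to 1000 UMIs, Mlip was seen in 18.5% (15.5 to 21.8) and 14.5% (11.4 to 18.0) of deep-like nuclei, intervals that overlap, and in 12.9% (11 to 15.1) and 4.55% (3.30 to 6.10) of superficial-like nuclei. Cyp7b1 was then seen in 5.26% (3.65 to 7.31) and 1.70% (0.738 to 3.33) of deep-like nuclei, and its intervals overlapped in superficial-like nuclei. For Gpr155 the intervals overlapped in both sublayers once thinned (6.06% and 3.19%, 7.29% and 5.31%).

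Whether a lower level was spread over all nuclei or came from a subset was read from the UMIs per nucleus. One calculation gave every epilepsy nucleus the same lower rate per UMI, and the other gave a subset the control rate and the rest 0, both with the depth each nucleus had. For Rsrp1 the share of epilepsy nuclei with a UMI was 31.9% (30.0 to 33.8). The even rate gives 32.1% and lies within that interval, and the subset, which would keep 45.5% of nuclei, gives 25.7% and lies outside it. The share with 2 or more UMIs pointed the same way, at 6.25% (5.29 to 7.33) against 6.34% for the even rate and 9.93% for the subset. The Rsrp1 counts thus match a lower rate across the nuclei more closely than silence in some of them.

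For Zmym1 the share with a UMI held both calculations, at 6.34% (5.37 to 7.42) against 6.33% and 5.84%. Its share with 2 or more UMIs was 0.220% (0.071 to 0.513), which held the 0.225% of the even rate and not the 0.661% of the subset. Mlip was seen in 18.2% of nuclei (16.7 to 19.9), below the 21.9% of the even rate and the 20.2% of the subset. Its share with 2 or more UMIs, 4.18% (3.40 to 5.09), held the 4.19% of the subset and not the 2.86% of the even rate. Mlip was uneven in the control too, seen in 38.5% of nuclei against the 42.6% of an even rate. Within superficial-like nuclei alone, the epilepsy share of Mlip, 10.8% (8.84 to 12.9), held both calculations (11.6% and 10.3%). Within deep-like nuclei that share, 31.7% (27.6 to 36.1), held the 35% of the subset and not the 36.5% of the even rate. The Mlip share with 2 or more UMIs held both calculations in deep-like nuclei, at 9.13% (6.71 to 12.1) against 8.32% and 9.27%. In superficial-like nuclei it was 1.51% (0.825 to 2.51), which held the 1.78% of the subset and not the 0.744% of the even rate.

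The other 7 genes, and Zmym1 by its share of positive nuclei, held both calculations, so for 8 of the 10 genes an even lowering and a subset cannot be told apart from that share at this depth. The share with 2 or more UMIs gave another picture for Cyp7b1 and Chst12. For Cyp7b1 it was 1.32% (0.893 to 1.88), above the 0.650% of the even rate and, by its lower bound, just above the 0.892% of the subset. Cyp7b1 exceeded an even rate in the control too, at 3.63% (2.97 to 4.39) against 2.27%. For Chst12, on 2 epilepsy nuclei, it was 0.088% (0.011 to 0.318), an interval that lay above the 0.0047% of the even rate and held the 0.013% of the subset. These genes average well under 1 UMI per nucleus, where both calculations give nearly the same share. An even rate was held by the interval of 9 of the 10 genes and of 95.4% of all genes, so it sets none of the 9 apart, and Mlip was among the few outside it.

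**Figure D4:**
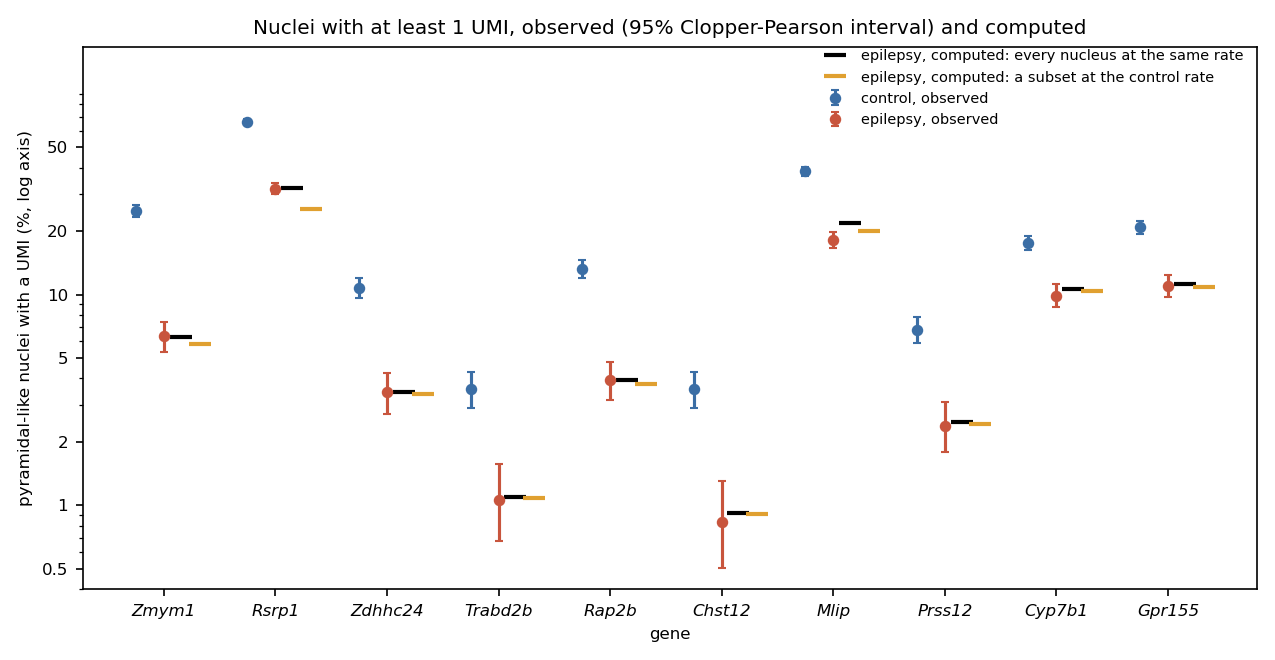
Share of pyramidal-like nuclei with at least 1 UMI of each gene (percent, logarithmic axis) in both libraries, with 95% Clopper-Pearson intervals, beside the shares computed for an even lower rate and for a subset at the control rate. For Rsrp1 the observed 31.9% sits on the even rate (32.1%) and above the subset (25.7%), and for the sparser genes both computed values fall within the bars.

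The Rsrp1 counts per nucleus shifted as a whole. In the control, 33.2% of pyramidal-like nuclei had 1 Rsrp1 UMI, 20.5% had 2 and 12.5% had 3 or more. In the epilepsy library these shares were 25.6%, 5.15% and 1.10%. In nuclei of matched depth, with totals of 3000 to 4000 UMIs, Rsrp1 was at 348 CPM over 1143 control nuclei and at 161 CPM over 564 epilepsy nuclei. The log2 ratio was -1.15 in nuclei of 2000 to 3000 UMIs and -1.60 above 4000. Below 1000 UMIs it was -0.45, and that interval included 0 (-1.52 to 0.64). Zmym1 had log2 ratios of -1.68 in nuclei of 3000 to 4000 and -1.58 above 4000 UMIs, so both genes were lower in nuclei of like depth too.

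Whether the same nuclei lacked several of the genes was read from the number seen per nucleus and, for Rsrp1 alone, from the other genes beside it. With 1000 UMIs per nucleus, a pyramidal-like nucleus held a UMI of 0.757 of the 10 genes on average in control and 0.381 in epilepsy nuclei. None of the 10 was seen in 42.3% of control nuclei (40.4 to 44.1) and 67.2% of epilepsy nuclei (65.2 to 69.1). The product of the separate shares, which is the value for genes that occur independently, was 43.4% and 67.2%. Nuclei with a Rsrp1 UMI held 233 UMIs (183 to 293) of the other 9 genes per 1000 nuclei in the epilepsy library, and those without one 259 (236 to 283). In the control these were 463 (418 to 512) and 496 (465 to 529). In both libraries, pyramidal-like nuclei that held Rsrp1 and those that lacked it therefore had overlapping levels of the other genes, with the sublayers pooled. At this depth 1908 control and 1877 epilepsy nuclei held no Rsrp1 UMI, against 823 and 313 with one. A nucleus can lack a UMI by sampling alone. The split therefore cannot separate nuclei that lost Rsrp1 from those that kept it. No other of the 10 genes was used to split the nuclei.

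Outside the pyramidal-like class, interneuron-like nuclei, the inhibitory neurons, gave 10 or more UMIs for 6 of the 10 genes. At least 2-fold lower levels were seen for 2 of the 6, and for 8.46% of genes with that many UMIs, while 3 had an interval below 0, against 3.85% of genes. Rsrp1 had 397 and 112 UMIs, or 602 CPM (544 to 664) in control and 339 CPM (279 to 408) in epilepsy nuclei, 1.78-fold lower. Zmym1 had 26 and 2 UMIs (39.4 and 6.05 CPM; log2 ratio -2.70, -5.82 to -0.71), and Zdhhc24 18 and 2 (27.3 and 6.05 CPM; -2.17, -5.32 to -0.11). Gpr155 (42.5 and 24.2 CPM) and Cyp7b1 (16.7 and 9.08 CPM) had intervals that included 0. Mlip was at 51.6 and 57.5 CPM, a log2 ratio of 0.16 (-0.73 to 1.01). The excitatory neuron gene Camk2a stood at 373 and 412 CPM in interneuron-like nuclei against 1701 and 1913 CPM in pyramidal-like nuclei. Neurod6 (7.58 against 149 CPM in the control) and Slc17a7 (13.7 against 128 CPM) were lower still in interneuron-like nuclei. The part of RNA from other cells in the low counts of Zmym1 and Zdhhc24 was not tested.

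The level of Rsrp1 in interneuron-like nuclei of the control, 602 CPM, was above that in pyramidal-like nuclei, 341 CPM, with intervals that did not overlap. As a share of positive nuclei, Rsrp1 was seen in 73.6% of control and 49.7% of epilepsy interneuron-like nuclei, and Zmym1 in 9.64% and 1.40%. These 2 were the genes of the 10 whose intervals stood apart, as they did for 6.31% of genes. With 1000 UMIs per nucleus Rsrp1 was seen in 41.1% and 25.9%, and the intervals of the libraries overlapped for all 10 genes in these few nuclei (0.195% of genes stood apart).

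In oligodendrocyte-like nuclei, the myelinating glia, 3 of the 10 genes had at least 10 UMIs. At least 2-fold lower levels were seen for 0 of the 3 and for 8.71% of genes, and 1 had an interval below 0, against 4.03% of genes. That gene was Rsrp1, with 100 and 69 UMIs, at 597 CPM (485 to 726) in control and 420 CPM (327 to 532) in epilepsy nuclei. Its log2 ratio was -0.50 (-0.97 to -0.05). The excitatory neuron gene Camk2a stood at 418 and 262 CPM in these nuclei, Neurod6 at 35.8 and 48.7 CPM, and Slc17a7 at 29.8 and 30.5 CPM. The part of RNA from other cells in the Rsrp1 counts of this class was not tested. Zmym1 had 7 and 4 UMIs (41.8 and 24.4 CPM; -0.78, -3 to 1.20). Gpr155 went the other way, with 10 and 19 UMIs or 59.7 and 116 CPM, and its interval included 0 (log2 ratio 0.96, -0.22 to 2.22). With 500 UMIs per nucleus, Rsrp1 was seen in 43 of 179 control and 50 of 262 epilepsy nuclei of this class. The intervals of the share of positive nuclei then overlapped for all 10 genes, and 4 of the 10 had a lower point share in the epilepsy library.

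Rsrp1 was the only gene of the 10 with a lower point level in the epilepsy library in all 7 named classes set side by side. Zdhhc24, Chst12 and Prss12 were lower in 5, Zmym1, Rap2b and Gpr155 in 4, and Trabd2b, Mlip and Cyp7b1 in 3. Cyp7b1 was higher in 4, and Zmym1, Rap2b and Gpr155 were higher in 3. Cajal-Retzius-like nuclei, a further named class (8 and 6 nuclei), were left out, and no share of all genes was computed for these counts. The Rsrp1 interval lay below 0 in CA1 pyramidal-like, interneuron-like and oligodendrocyte-like nuclei. The groups kept apart from the named classes went different ways. In the mixed group Rsrp1 went from 384 to 185 CPM (log2 ratio -1.05, -1.64 to -0.50). In the pyramidal group led by glial genes it was higher in the epilepsy library, at 327 and 687 CPM on 17 and 42 UMIs (log2 ratio 1.07, 0.23 to 1.98), and 54 of the 68 epilepsy nuclei of that group lay in a subcluster with 0 control nuclei. In the small classes Rsrp1 went from 855 to 346 CPM in astrocyte-like nuclei (31 and 10 UMIs) and from 537 to 147 CPM in CA2/CA3 pyramidal-like nuclei (41 and 26 UMIs). Dentate granule-like nuclei had 99 and 2 Rsrp1 UMIs (329 and 157 CPM, the latter with an interval of 19.0 to 567). Oligodendrocyte precursor-like nuclei had 5 and 4, so the direction there rests on very few UMIs. Zmym1 stood at 129 CPM (92.1 to 177) on 39 UMIs in dentate granule-like nuclei of the control, above the 85.2 CPM (79.5 to 91.2) of CA1 pyramidal-like nuclei. Cyp7b1 was also high in dentate granule-like nuclei, at 511 CPM on 154 control UMIs and 628 CPM on 8 epilepsy UMIs, and stood at 248 and 311 CPM in astrocyte-like nuclei. Its point level was thus lower in the epilepsy library in CA1 pyramidal-like nuclei and not in these 2 classes, and the difference between classes was not tested.

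Immediate early genes, which neurons switch on with activity, also summed to a lower level in the epilepsy library. The sum of 11 of them was 954 and 546 CPM (control and epilepsy) in pyramidal-like nuclei, 259 and 115 CPM in interneuron-like nuclei, and 346 and 207 CPM in oligodendrocyte-like nuclei. Without the cluster led by such genes, 7 of the 10 genes were still at least 2-fold lower in the pyramidal-like class. By likeness of the log2 ratios over the 3 classes, the nearest gene to the mean of the 10 (-1.14, -0.64 and -0.78) was Nr4a3, itself an immediate early gene (root mean square distance 0.107), followed by Med19 (0.142) and Zfp46 (0.152). Each of these had few UMIs outside the pyramidal-like class. Of the 10 genes themselves, only 6 had at least 10 UMIs in interneuron-like and 3 in oligodendrocyte-like nuclei. Outside the pyramidal-like class the mean of the 10, and the likeness to it, therefore rest partly on genes with very few UMIs. In oligodendrocyte-like nuclei they rest mostly on such genes, since 7 of the 10 had under 10 UMIs and Nr4a3 had 4 and 2. The likeness uses the ratios that chose the 10 genes, so it is a description too. Oligodendrocyte markers in pyramidal-like nuclei summed to 107 CPM in control and 139 CPM in epilepsy nuclei, with 0 of 6 at 0. The part of either in the results was not tested.

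Relatives and partners of each gene did not share the lower level to that degree in pyramidal-like nuclei. Of 187 listed genes 153 had at least 50 UMIs, 1 of these was at least 2-fold lower and 2 were at least 2-fold higher, and the median log2 ratio was -0.08. Intervals lay below 0 for 33 and above 0 for 20. The lower gene was Emd, which encodes the nuclear envelope protein emerin (6.62 and 3.29 CPM, log2 ratio -1.01), and the 2 higher ones were Axin2 (1.03) and the agrin receptor gene Musk (2.07). These 3 are the exceptions, picked out once their values were known.

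By role, SR proteins and the CLK kinases that phosphorylate them had 17 of 23 measured genes on the lower side, 9 with an interval below 0 and 0 above, with a median of -0.09. Over all genes 16.5% of intervals lay below 0. Srrm2, a splicing scaffold, stood at 929 and 602 CPM (log2 ratio -0.63), and Son had a ratio of 0.00. The 6 zinc finger relatives of Zmym1 had a median of -0.02 and the 13 lamins and nuclear envelope genes 0.11. Among 18 DHHC enzymes 2 intervals lay below 0 and 3 above, and Zdhhc14, the one with the most UMIs, was higher in the epilepsy library (381 and 581 CPM, log2 ratio 0.61).

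The 11 measured Wnt pathway genes had a median of 0.14, with 0 intervals below 0 and 4 above. The 19 Rap and Ras genes had a median of -0.09, with 5 below and 3 above. The 17 sulfotransferase and chondroitin genes had a median of -0.06, with Chst11, which acts on the same substrate as Chst12, at 0.29. Serpini1, which encodes the protease inhibitor neuroserpin, was at 124 and 93.4 CPM (log2 ratio -0.41), while the 9 neurotrypsin partners together had a median of 0.04. The 14 cholesterol and oxysterol genes had a median of -0.27, with 2 intervals below 0, and the median was -0.18 over the 18 with at least 20 UMIs and -0.10 over the 9 with at least 200 UMIs. Cyp46a1, which makes the main oxysterol of the brain, was at 37.4 CPM in both libraries. The 23 genes of lysosomal nutrient sensing around mTORC1 had a median of -0.09, with 4 intervals below 0 and 1 above. No list came near the median of -1.20 of the 10 genes. Since the 10 were chosen for low ratios, a gap to lists not picked that way follows from the choice.

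Genomic neighbours were not lower to that degree either. Of the 60 nearest measured genes, 3 on each side of each gene, 0 were at least 2-fold lower, and the median log2 ratio was -0.12. Since only 1.18% of all genes were that much lower, 0 of 60 says little. Intervals lay below 0 for 16 of the 60 and above 0 for 11, a larger share below than the 16.5% of all genes. With a minimum of 20 UMIs, 12 of the 60 nearest had an interval below 0 and 15 above. The followed genes were chosen for low ratios, so a gap to their neighbours follows from the choice. Syf2, 3.23 kb from Rsrp1, was at -0.57 and Tmem50a, 8.57 kb away on the other side, at -0.31. Sfpq and Zmym6 near Zmym1 were at -0.36 and 0.11, Bbs1, 1.48 kb from Zdhhc24, at 0.14, and Scrn3, 3.69 kb from Gpr155, at -0.13. Among other genes of chromosome 4, 1.73% were at least 2-fold lower, and among those of chromosome 3, 1.5%. Gpr155 overlaps the gene Gm13703 on the other strand, and the sources used here do not say whether the counting used strand.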

How the data were processed

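Per the labels' protocols, nuclei from dorsal CA1 were sorted and captured with 10x 3' chemistry (version 2), 1 library per condition. Cell Ranger 2.2.0, FastQC and the build GRCm38 (mm10) are named per the submitters' processing notes. The choice of barcodes, the annotation, and any use of intronic reads or strand in counting were not given in the sources used here. Raw UMI counts per gene and nucleus were deposited by the authors, 3661 control and 3078 epilepsy barcodes, with no normalization.

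Nuclei needed 200 detected genes and under 5% mitochondrial UMIs, which removed 0. Scrublet marked 4 nuclei in each library (0.109% and 0.130%), too few to have worked, so the 3% with the highest doublet score were removed (110 and 93), leaving 3551 and 2985. With scanpy 1.11.5 in Python 3.11.15, the 2000 most variable genes, the 10 genes left out, were scaled to the mean and SD of each library. Nuclei were joined to 20 neighbours over 30 principal components and clustered by leidenalg 0.10.2 (resolution 1), and the pyramidal ones were then subclustered. Classes are called by the marker list with the highest mean log2 level in a cluster, relative to the lower quartile over clusters. By summed CPM another list can stand higher. In CA2/CA3 pyramidal-like nuclei CA1 pyramidal markers summed to 2082 and 1896 CPM (control and epilepsy), and their own markers to 1283 and 1664 CPM. Clusters with 7 or more of the 10 CA1 markers at 0.5 of the pyramidal level were kept apart as mixed (83 and 86 nuclei), as were pyramidal subclusters led by glial genes (56 and 68). These rules, and the 1.25-fold threshold for the further sublayer markers, were set after clusters had been seen. No sublayer was given to 1048 control and 860 epilepsy pyramidal-like nuclei.

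The counts of a class were added up in each library and scaled to a common total (CPM). Levels carry exact Poisson intervals, shares Clopper-Pearson intervals and log2 ratios exact conditional binomial intervals (scipy 1.17.1), all at 95% and for counting error only. Nuclei are not replicates, so no test was made between conditions. Classes with at least 30 nuclei in each library were compared. A nucleus was thinned by drawing 1000 or 500 of its UMIs. Of the clusters with no class name, the mixed and glial-gene groups had enough nuclei and are given for Rsrp1; all others are given by levels only. Gene positions came from GENCODE M21 on GRCm38 (30330 of 30431 identifiers matched), promoters from RefSeq GRCm38.p6.

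The 10 genes and the gene lists were chosen with earlier results of these data known. Named beside them were, in each list, up to 3 genes with the most UMIs, and the nearest measured neighbours. Likeness was the root mean square distance of log2 ratios over 3 classes, for genes with at least 100 pyramidal UMIs. For likeness only, a small constant was added to each count, which draws ratios on few UMIs towards 0. The calculations were checked on simulated data. Alternatives covered detected genes, doublets, resolution, centring, the sublayer split, thinning, equal weight per nucleus and UMI minimums, scaling by TMM (edgeR 4.0.16 in R 4.3.3), and 4 choices added after the data were seen: leaving out the low-UMI cluster, leaving out the immediate early gene cluster, keeping the glial-gene subclusters, and sublayers with nuclei of 1500 to 6000 UMIs.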

Additional observations from a re-analysis of the deposited data

Results flagged for a closer look

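In 3 cases a gene moved one way in one class or sublayer and the other way in another, and none of these differences was tested, since each condition is 1 library. Trabd2b was lower in deep-like nuclei of the epilepsy library (log2 ratio -1.54), and in superficial-like nuclei its log2 ratio was 0.97 (-1 to 3.02) on 5 control and 6 epilepsy UMIs. That ratio was below 0 where at least 500 detected genes were required (-2.26), at Leiden resolution 2 (-1.32) and with the median split of the marker score (-1.45). Mlip was lower in pyramidal-like nuclei (-0.73) and had a log2 ratio of 0.16 in interneuron-like nuclei, where it had 34 and 19 UMIs, and that ratio was -0.81 when nuclei were thinned to 1000 UMIs. Gpr155 was lower in pyramidal-like nuclei (-0.60) and had a log2 ratio of 0.96 in oligodendrocyte-like nuclei, on 10 and 19 UMIs. The intervals of all 3 positive ratios included 0.

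Among the pyramidal subclusters led by glial genes, 1 held 54 nuclei of the epilepsy library and 0 of the control, with a median of 924.5 UMIs. Its leading genes were Neat1, Ptgds, Mag and Csf1r. Rsrp1 stood at 749.8 CPM there (533 to 1025, 39 UMIs), above the 155 CPM of epilepsy pyramidal-like nuclei and the 420 CPM of epilepsy oligodendrocyte-like nuclei. Srsf5 (634 CPM against 147 CPM in epilepsy pyramidal-like nuclei) and Clk1 (423 against 91.8 CPM), picked out once their values were known, were also high there. With no control nuclei in the subcluster it has no ratio of its own. The whole group of pyramidal nuclei led by glial genes had an Rsrp1 log2 ratio of 1.07 (0.23 to 1.98) on 17 and 42 UMIs, against -1.14 in pyramidal-like nuclei.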

How the results depend on the processing

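The count of genes at least 2-fold lower in pyramidal-like nuclei was 7 under every alternative run but thinning to 1000 UMIs, where it was 6 (Prss12 then stood at -0.55 on the log2 scale). Over both sublayers it was 14 of 20 and ranged from 12 to 15. Of 372 single-gene values under alternatives, 355 moved by less than their interval, 16 moved by more and 1 whose interval excluded 0 changed sign, Prss12 in deep-like nuclei, -1.37 on the log2 scale and 0.00077 when thinned to 1000 UMIs. Zdhhc24 in deep-like nuclei, whose interval reached 0, was at -0.70 and at 0.05 when thinned. With 500 UMIs per nucleus, 5 genes had shares of positive nuclei that stood apart, against 9 with 1000. The number of list genes at least 2-fold lower was 3 of 166 with a minimum of 20 UMIs and 0 of 121 with 200 UMIs, against 1 of 153. The share of all genes at least 2-fold lower was 2.32% with 20 UMIs and 0.379% with 200 UMIs, against 1.18%. The Mlip log2 ratio in superficial-like nuclei was -0.87 where 500 detected genes were required, -0.88 at resolution 2 and -1.06 with the median split, against -1.49. At resolution 0.5 no cluster took the oligodendrocyte-like name, so that class has no value there. The cause of these shifts was not tested. With 1 library per condition, the spread between animals is unknown, and genes under about 50 UMIs are limited by depth. No paired analysis was possible because each condition has 1 library.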
